A study of Rattus norvegicus with 18 samples.

Results

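The Hox genes are the subject here: 22 of the 14506 genes that could be named on these arrays, chosen as every gene whose symbol is Hox followed by a cluster letter (a to d) and a number. The samples were medullary thyroid carcinomas, which grow from C cells, the calcitonin source of the thyroid, and their total RNA was measured on 18 Affymetrix arrays, 6 in each group. The first group came from rats homozygous for a mutation of Cdkn1b (p27Kip1) at 9 months, the second from heterozygous rats at 18 months and the last from heterozygous rats at 9 months. All were MENX rats of the strain labelled Sprague–Dawley white eye/Wistar–Kyoto, and all were untreated, so every tumour arose in an animal with at least 1 mutant Cdkn1b allele and neither wild-type animals nor normal thyroid were among the samples.

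Hox genes encode homeodomain transcription factors and lie in 4 clusters, in which the number of a gene follows its place along the chromosome. Genes with low numbers are switched on early and towards the head, those with high numbers later and towards the tail, and many adult cells keep the pattern of the region they came from. C cells and the parathyroid arise from the pharynx of the embryo, where genes of group 3 (Hoxa3, Hoxb3 and Hoxd3) pattern the glands of the neck in the mouse. The proteins bind DNA together with cofactors of the Pbx and Meis families, Polycomb complexes keep the clusters silent, and MLL complexes with menin, the product of the tumour suppressor gene Men1, keep them active.

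Of 39 Hox genes in RefSeq, 22 had a probe set with that symbol alone, 1 each, and the other 17 were not analysed here. Values are on the log2 scale, so a difference of 1 is a doubling, and levels of different probe sets are not comparable as amounts of RNA. A gene was marked as near background where its mean over the arrays lay below 6.32, the 30th percentile of all 29214 probe sets. This held for 10 Hox genes, and the other 12 were tested among 11370 genes. A list of genes that a thyroid should not use, such as lens crystallins and sperm protamines, gives a second mark: its 23 measured members had means between 4.37 and 7.90, with a median of 5.92. Only Hoxb3, Hoxb4, Hoxb7 and Hoxb8 had means above all of these, and the other 8 tested Hox genes lay within that range.

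Medians of the arrays lay between 7.55 and 7.65. The C cell markers fitted the label, with 13 of 15 measured, means of at least 10.17 and Calca, the calcitonin gene, among them. Markers of follicular cells (list means per array of 7.75 to 11.01) and of the parathyroid (8.53 to 12.87) were also present. In such bulk samples fewer cells of a type and less RNA per cell cannot be told apart. Some arrays stood apart from their group on the first principal component (63.9% of the variance). Among tumours of 18 months, replicates 4 and 5 were at -11.7 and 4.21, against 35.8 to 69.9 for the other 4. Homozygous replicate 3 lay at 24.0, against -9.68 and below for the other 5 homozygous tumours. Where nothing else is said, SDs are over 6 tumours of different animals.

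The Hoxb cluster held the highest signals, in 2 pairs of neighbours, Hoxb3 with Hoxb4 and Hoxb7 with Hoxb8. Hoxb3, a gene of the neck region, averaged 9.21 ± 0.42 in homozygous tumours, 9.87 ± 0.63 in heterozygous tumours of 18 months and 8.86 ± 0.15 in heterozygous tumours of 9 months, and its mean stood at percentile 75.9 of all probe sets. Hoxb4, its neighbour in the cluster and known for expanding blood stem cells, averaged 9.14 ± 0.31, 9.70 ± 0.57 and 8.96 ± 0.09 in the same groups (percentile 75.1). Hoxb7 and Hoxb8, neighbours further along that act in the trunk, stood at percentiles 60.8 and 61.6. Between these pairs lie Hoxb5 and Hoxb6, which were not analysed here, so whether the signals form 1 stretch or 2 cannot be told. Hoxb2, which acts in the hindbrain, Hoxb9, which patterns ribs, and Hoxb13, a gene of the prostate and hindgut, had means of 5.87, 5.34 and 5.53 and were near background.

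**Figure D1:**
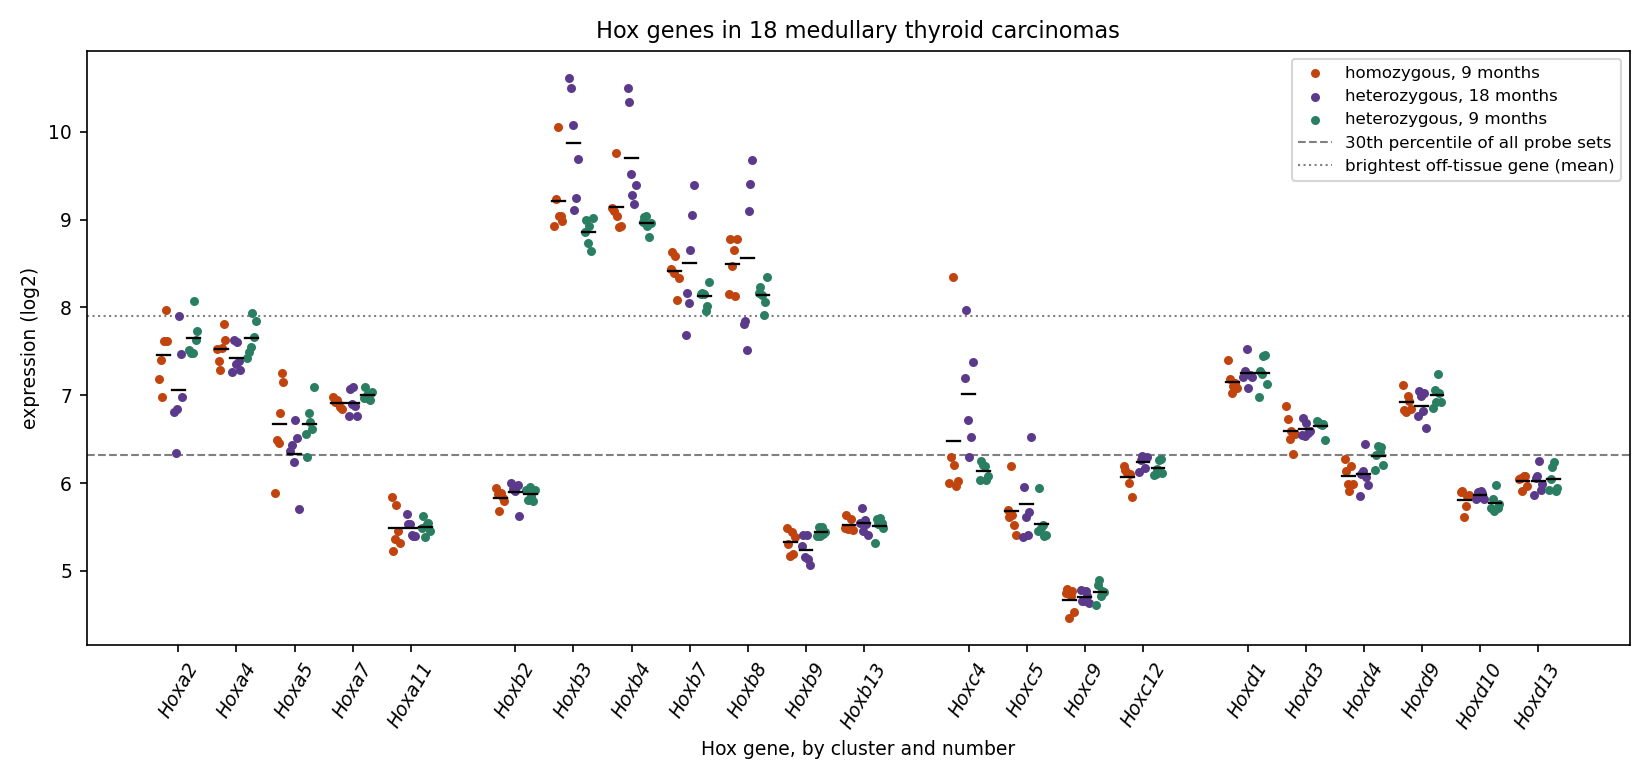
Expression (log2) of the 22 Hox genes by cluster and number in homozygous tumours of 9 months, heterozygous tumours of 18 months and heterozygous tumours of 9 months; each point is 1 tumour and each bar a mean of 6. The means of Hoxb3, Hoxb4, Hoxb7 and Hoxb8 lie above the dotted line, the brightest off-tissue gene at 7.90, and 10 genes have means below the dashed line at 6.32.

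In the Hoxa cluster 4 of 5 measured genes were tested. Hoxa4, which acts in the neck vertebrae, had the highest mean (7.53, percentile 48.4), with medians of 7.53 in homozygous tumours, 7.37 in heterozygous tumours of 18 months and 7.61 in heterozygous tumours of 9 months. It was followed by Hoxa2, which sets the identity of the second pharyngeal arch (7.39). Hoxa7 (6.94) and Hoxa5, a gene of lung and thyroid development in the mouse (6.56), lay lower, and Hoxa11, a gene of limb and uterus, was near background (5.49). In the Hoxd cluster Hoxd1, which acts in pain neurons of the mouse, had the highest mean (7.22), with medians of 7.12, 7.21 and 7.26 in the same groups. Hoxd9, which had the widest range in its cluster (0.62), stood at 6.94 and Hoxd3 at 6.62, while Hoxd4 (6.16), Hoxd10 (5.82) and Hoxd13 (6.03) were near background. In the Hoxc cluster only Hoxc4 was tested (6.54, percentile 33.2). Hoxc5 (5.66), Hoxc9, which patterns motor neurons of the chest (4.71), and Hoxc12 (6.16) were near background.

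Of the 22 genes 11 had a promoter in RefSeq's table (GRCr8), from 250 bases before to 50 after the gene's start. The promoters of Hoxc4 and Hoxa2 are shown because both genes passed the filtered test with age (Hoxc4 did not with no filter), with differences of opposite sign. That of Hoxa4 is shown as a gene of the same number as Hoxc4 and the same cluster as Hoxa2. They lie at chr7:136048809-136049108 (plus strand), chr4:82595643-82595942 (minus strand) and chr4:82622253-82622552 (minus strand). Capitals mark matches, on either strand, to TGATNNAT (a joint Pbx and Hox motif), TAATTA (a homeodomain core), AGGTCA (a retinoid receptor half-site) or TATAAA, the box that many core promoters hold.
Hoxc4: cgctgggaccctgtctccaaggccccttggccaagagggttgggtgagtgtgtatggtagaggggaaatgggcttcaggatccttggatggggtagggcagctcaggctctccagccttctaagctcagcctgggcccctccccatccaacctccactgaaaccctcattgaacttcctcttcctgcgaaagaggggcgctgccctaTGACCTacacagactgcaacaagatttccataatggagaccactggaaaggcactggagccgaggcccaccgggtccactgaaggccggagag
Hoxa2: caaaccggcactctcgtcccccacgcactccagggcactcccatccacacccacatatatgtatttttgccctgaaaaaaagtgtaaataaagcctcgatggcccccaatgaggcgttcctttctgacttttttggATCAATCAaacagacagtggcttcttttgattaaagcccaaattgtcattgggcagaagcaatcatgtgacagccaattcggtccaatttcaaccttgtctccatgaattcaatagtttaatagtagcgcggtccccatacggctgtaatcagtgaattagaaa
Hoxa4: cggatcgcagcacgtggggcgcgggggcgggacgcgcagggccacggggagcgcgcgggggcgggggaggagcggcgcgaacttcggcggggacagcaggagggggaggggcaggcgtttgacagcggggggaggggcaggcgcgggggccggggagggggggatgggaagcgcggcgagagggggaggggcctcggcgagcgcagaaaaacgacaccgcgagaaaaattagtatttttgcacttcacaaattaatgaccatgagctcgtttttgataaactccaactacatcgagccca
Hoxa2 held 1 match to TGATNNAT, which 9.1% of 33469 promoters hold, and Hoxc4 held 1 match to AGGTCA, which 16.2% hold. Hoxa4 held none of the 4 motifs. The homeodomain core stands in 5.36% of promoters and the core promoter box in 14.2%. The dinucleotide CG occurred 6 times in Hoxc4, 9 times in Hoxa2 and 34 times in Hoxa4, against a median of 7 over all promoters. These matches describe letters in these windows and say nothing on binding.

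The first question was what differs in the Hox clusters between heterozygous tumours of 18 and of 9 months. Hoxb3 and Hoxb4 rose and Hoxa2 fell by limma. Hoxc4 was also higher and passed, but it entered the test only through the tumours in which it was high, and it did not pass with no filter, so its values are a description. With it 4 of the 12 genes tested passed, where 44.1% of all genes did. Over all 11370 genes 21.6% rose and 22.4% fell, so neither the 3 higher (25.0%) nor the 1 lower (8.33%) of 12 Hox genes is read as a result about Hox genes as a group. Without Hoxc4 2 of 11 were higher (18.2%). The median difference was -0.02 over the 12 genes and -0.0045 over all genes tested. For 3 of the 12 (Hoxb3, Hoxb4 and Hoxc4) all older tumours lay above every younger one, against 9.07% of all genes. For 0 of the 12 they all lay below, against 9% of all genes. Hoxc4 counts here only as a description, and neither count is read as a result about Hox genes as a group. Off-tissue genes passed too: of 10 tested 1 rose and 2 fell. Tecta differed by 0.28, Ambn by -0.29 and Crygn by -0.26 (limma adjusted p-values of 0.0131, 0.00171 and 0.029). Means of Ambn (7.48) and Crygn (7.28) lay near those of Hoxa2 (7.39) and Hoxa4 (7.53).

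Hoxb3 ranged from 9.11 to 10.61 with a median of 9.88 at 18 months, and from 8.64 to 9.02 with a median of 8.90 at 9 months. The groups did not overlap. Hoxb3 rose by 1.01 (SE 0.24, limma adjusted p = 0.0035), a fold of 2.01, and kept its call without each array in turn (0.86 to 1.16). Hoxb4 ranged from 9.18 to 10.50 with a median of 9.46 at 18 months, and from 8.80 to 9.04 with a median of 8.97 at 9 months. It rose by 0.74 (SE 0.21, limma adjusted p = 0.008), in 6 of 6 tumours beyond every younger one, and by 0.58 to 0.85 without each array in turn. Without replicates 4 and 5 of the 18-month group, which stood apart, Hoxb3 rose by 1.35 and Hoxb4 by 0.98. With the mean of the fibroblast markers as a covariate neither passed (0.85 and 0.46, limma adjusted p-values of 0.0545 and 0.164), and with that of the parathyroid markers Hoxb4 did not (0.65, adjusted p = 0.052).

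The group means of C cell markers had the same order as those of Hoxb3 and Hoxb4. Of 13 measured 10 rose with age, where 21.6% of all genes did, and Ret, Chga and Gfra4 did not pass. Within the 18-month group the orders matched only in part. Replicates 4 and 5 were lowest for C cell markers (11.60 and 11.99) and for both Hox genes. Replicate 6 had the highest C cell mean (12.53), but its Hoxb3 (9.69) and Hoxb4 (9.40) lay below replicates 1, 2 and 3. The C cell list averaged 11.62 in homozygous tumours, 12.27 in heterozygous tumours of 18 months and 11.16 in heterozygous tumours of 9 months. Follicular markers averaged 10.76, 9.53 and 10.97 in these groups and endothelial markers 9.44, 8.72 and 9.71. Parathyroid markers averaged 11.75, 10.44 and 12.10, fibroblast markers 9.03, 9.05 and 9.26, and adipocyte markers 8.25, 7.54 and 8.45. The parathyroid list had only 3 of 4 genes measured, and these did not move together with age. Casr rose (0.56) and Gcm2 fell (-2.58), while Pth (-2.97) did not pass. Of 15 fibroblast markers measured 3 rose, 6 fell and 6 did not pass. Skeletal muscle markers averaged 8.87, 8.26 and 9.59, smooth muscle markers 9.16, 9.27 and 9.36, leukocyte markers 6.97, 6.97 and 6.998, mast cell markers 6.75, 6.56 and 6.79, and nerve and glial markers 7.64, 7.46 and 7.65. The part of these markers in the Hox differences was not tested. The fits with a parathyroid or fibroblast mean as a covariate cannot decide it, since these means themselves differed between the ages.

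Hoxc4 ranged from 6.30 to 7.97 with a median of 6.95 at 18 months, and from 6.04 to 6.25 with a median of 6.14 at 9 months. All 6 older tumours lay above every younger heterozygous one. The difference was 0.88 (SE 0.35, limma adjusted p = 0.0486), but the mean of 6.13 at 9 months was below the filter of 6.32, as was that of homozygous tumours without replicate 3 (6.10). With no filter the adjusted p was 0.0583, and with trend and robust moderation 0.0503. The call held without homozygous replicate 3 (adjusted p = 0.00283) or without replicate 4 or 5 of the 18-month group, and was lost without each of the other 15 arrays (limma adjusted p up to 0.122). With either covariate it was also lost (adjusted p = 0.193 for parathyroid and 0.26 for fibroblast markers). RefSeq places Hoxc4 and Hoxc5 within the span of Hoxc6 and has Hoxa4 overlap Hoxa3 and Hoxa3l1, and Hoxa5 overlap Hoxa3 and Hoxaas3. Only spans were compared, and whether probes of these 4 genes read more than 1 transcript was not tested.

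Hoxa2 ranged from 6.34 to 7.90 with a median of 6.91 at 18 months, and from 7.48 to 8.07 with a median of 7.58 at 9 months. In 5 of 6 older tumours it lay below every younger one, the exception being replicate 4. Hoxa2 fell by 0.59 (SE 0.22, limma adjusted p = 0.0345), and by 0.91 without replicates 4 and 5 of the 18-month group (limma adjusted p = 0.000423). The call was lost without replicate 4, 5 or 6 of the younger group and without replicate 1, 2, 3 or 6 of the older (differences of -0.60 to -0.45, limma adjusted p from 0.0528 to 0.0895), and with parathyroid (-0.31) or fibroblast markers (-0.35) as a covariate.

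The other 8 tested genes did not pass. Hoxa4 differed by -0.23 (SE 0.10, limma adjusted p = 0.0817) and passed without replicate 1 of the younger group (-0.28, limma adjusted p = 0.0464) or replicate 4 of the older (-0.27, adjusted p = 0.0467). Hoxa5 differed by -0.34 (SE 0.21), Hoxa7 by -0.09 (SE 0.06), Hoxd9 by -0.13 (SE 0.08) and Hoxd3 by -0.03 (SE 0.08). Hoxd1 differed by -0.0005 with an interval of -0.19 to 0.19, and its sign turned under median centring and other settings. All 4 tested Hoxa genes were thus on the lower side and all 4 tested Hoxb genes on the higher side at 18 months, counts that were read after the values were seen. Among the 10 genes near background only Hoxb9 passed when no filter was used, with a difference of -0.20 (limma adjusted p = 0.0325) between means of 5.24 at 18 months and 5.44 at 9 months, where 17.2% of 14506 genes fell and 16.4% rose.

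**Figure D2:**
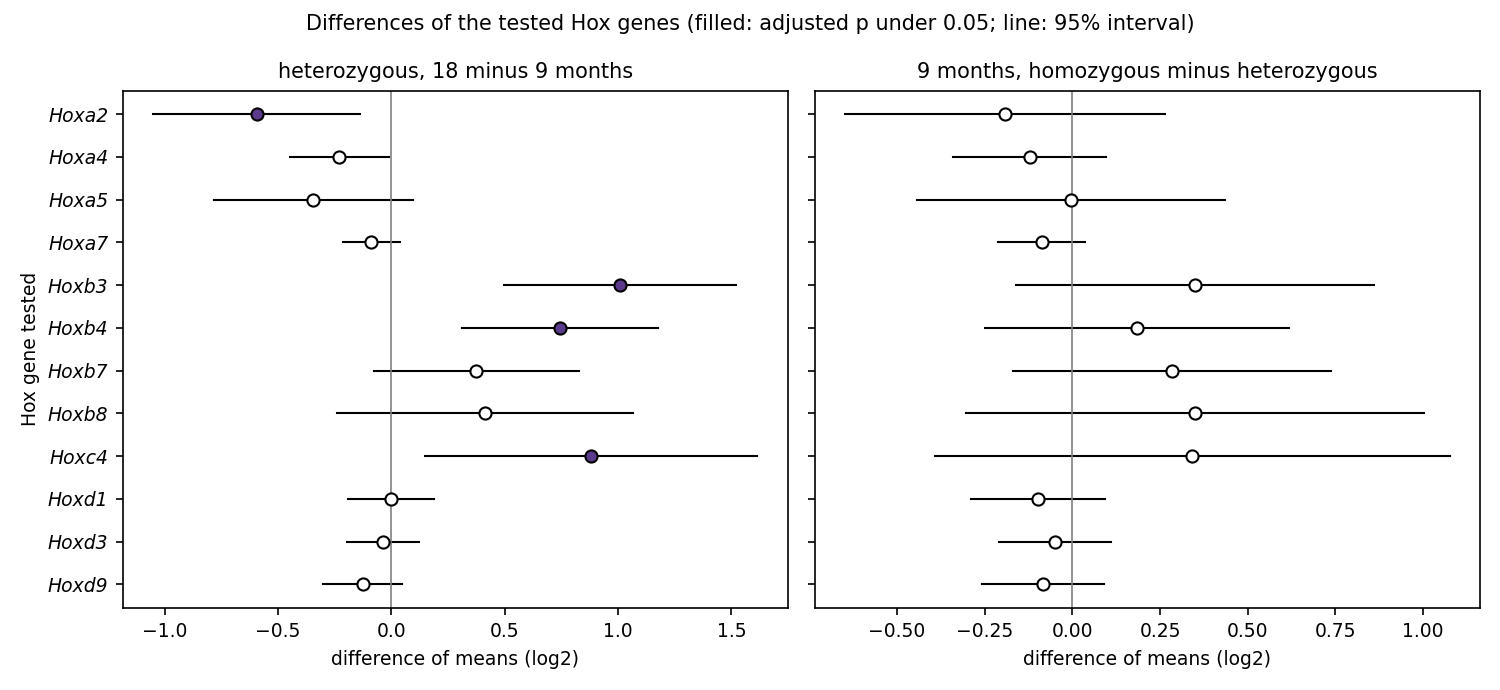
Differences of means (log2) of the 12 tested Hox genes, heterozygous tumours of 18 minus 9 months at left and homozygous minus heterozygous tumours of 9 months at right, with limma's 95% intervals. Filled points passed an adjusted p of 0.05: Hoxb3, Hoxb4 and Hoxc4 above 0 and Hoxa2 below it at left, and none at right; Hoxc4 did not pass with no filter.

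Genes of the same number in different clusters had differences of both signs. In group 4, Hoxb4 rose by 0.74, while Hoxa4 differed by -0.23 without passing and Hoxd4, near background, by -0.21. Hoxc4, near background at 9 months, had 0.88. In group 3, Hoxb3 rose by 1.01, while Hoxd3 differed by -0.03 with an interval of -0.19 to 0.12. In group 9, only Hoxd9 was tested, and it did not pass (-0.13). Hoxb9 and Hoxc9 were near background, and Hoxb9 passed only with no filter. The differences between genes of a group were not tested.

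Within the 18-month group Hoxb3 and Hoxb4 differed from Hoxb7 and Hoxb8 in which tumours were high. Hoxb8 measured 7.81, 7.84 and 7.52 in replicates 1, 2 and 3, and 9.10, 9.40 and 9.67 in replicates 4, 5 and 6. The 12 tumours of 9 months ranged from 7.92 to 8.78, so 3 of the older tumours lay below all of them and 3 above. Only 2 of the 11370 genes tested had 3 of the 6 older tumours above and 3 below that range (0.0176%), Hoxb8 and the kallikrein gene Klk1b3, a pattern that was chosen after the values were seen.

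Hoxb7 measured 7.69, 8.16 and 8.05 in replicates 1, 2 and 3 and 8.65, 9.05 and 9.39 in replicates 4, 5 and 6, against 7.96 to 8.63 in the tumours of 9 months. Hoxb3 ran the other way, at 10.61, 10.49 and 10.07 in replicates 1, 2 and 3 and 9.11, 9.25 and 9.69 in replicates 4, 5 and 6. The 3 tumours highest for Hoxb7 and Hoxb8 were thus the 3 lowest for Hoxb3. Hoxb4 had the same 3 tumours lowest, with 10.50, 10.34 and 9.52 in replicates 1, 2 and 3 and 9.28, 9.18 and 9.40 in replicates 4, 5 and 6. Hoxc4 did not follow this order, since replicate 6 (7.38) was second to replicate 2 (7.97).

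**Figure D3:**
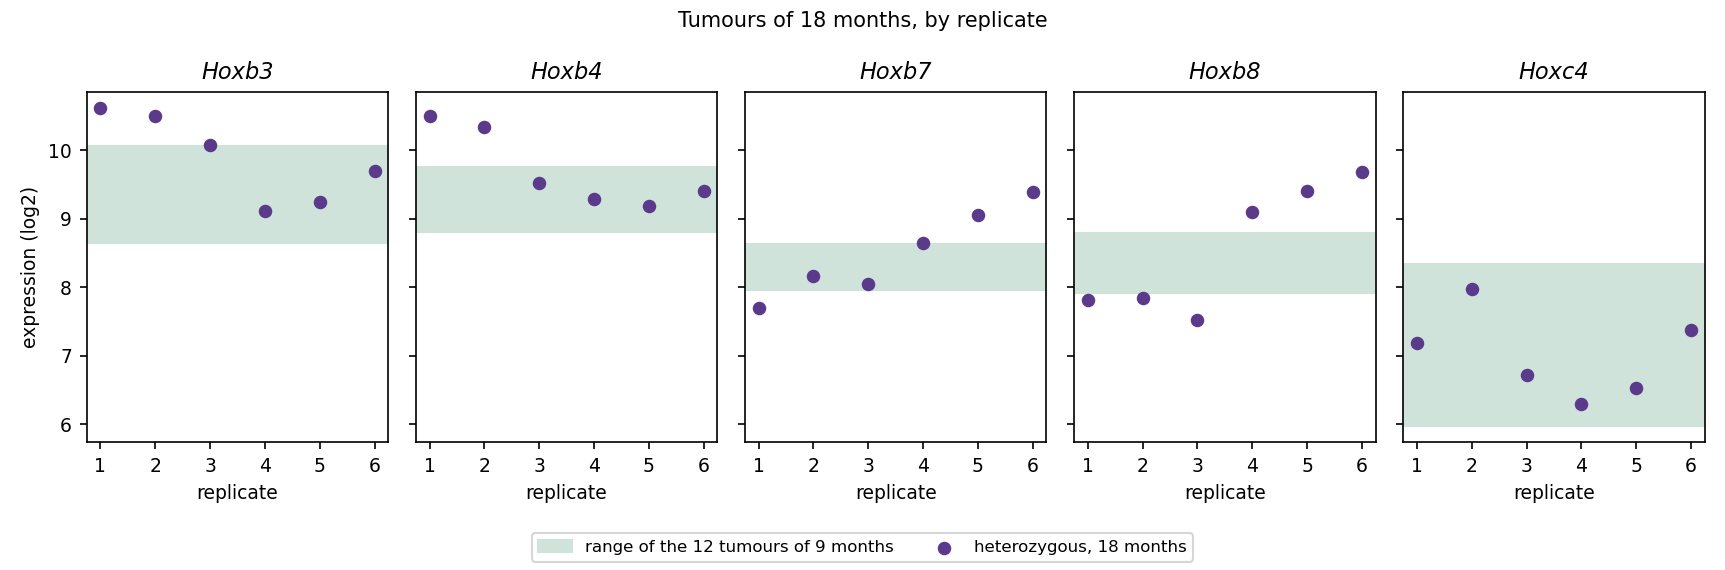
Expression (log2) of 5 Hox genes in each of the 6 heterozygous tumours of 18 months (points, by replicate, which has no order), with the range of the 12 tumours of 9 months shaded. For Hoxb8 no point lies in the shaded range of 7.92 to 8.78. Against replicates 1, 2 and 3, replicates 4, 5 and 6 are high for Hoxb7 and Hoxb8 and low for Hoxb3 and Hoxb4. Homozygous replicate 3 sets the top of the shaded range for Hoxb3, Hoxb4 and Hoxc4.

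The mean differences with age hide this spread. Hoxb8 averaged 8.56 ± 0.94 at 18 months and 8.14 ± 0.15 at 9 months, a difference of 0.41 (SE 0.31, limma adjusted p = 0.298, interval -0.24 to 1.07). Hoxb7 averaged 8.50 ± 0.65 and 8.12 ± 0.11 in the same groups, a difference of 0.38 (SE 0.22, limma adjusted p = 0.169). It passed without replicate 1 of the 18-month group (0.54, limma adjusted p = 0.0353). The SD of Hoxb8 at 18 months stood at percentile 96.4 of all genes tested, and those of Hoxb7, Hoxb3, Hoxc4, Hoxb4 and Hoxa2 between 87.6 and 91.0. In homozygous tumours the SDs of Hoxc4, Hoxb3, Hoxa2, Hoxb4, Hoxb8 and Hoxb7 stood at percentiles 99.0, 92.3, 88.0, 84.5, 83.3 and 63.4. In heterozygous tumours of 9 months those of Hoxa2, Hoxb3, Hoxb8, Hoxb7, Hoxc4 and Hoxb4 stood at 91.2, 74.7, 72.5, 55.5, 37.6 and 33.1, and Hoxa2 ranked higher there than at 18 months.

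Markers of other cells also differed among these older tumours. The follicular list, 11 of 13 genes measured, averaged 10.77, 10.60 and 9.56 in replicates 4, 5 and 6 and 7.75, 9.38 and 9.10 in replicates 1, 2 and 3, against 10.91 to 11.01 in heterozygous tumours of 9 months. The endothelial list, 11 of 12 measured, averaged 9.61, 9.42 and 8.72 in replicates 4, 5 and 6 and 7.90, 8.30 and 8.41 in replicates 1, 2 and 3. The smooth muscle list, all 10 measured, ran the other way, with 9.27, 9.05 and 8.88 in replicates 4, 5 and 6 and 9.31, 9.58 and 9.52 in replicates 1, 2 and 3. The skeletal muscle list, 13 of 15 measured, had 8.80, 6.84 and 6.67 in replicates 4, 5 and 6 and 8.96, 8.53 and 9.78 in replicates 1, 2 and 3, and ranged from 6.82 to 10.70 in the tumours of 9 months. C cell markers did not separate the 2 sets: they averaged 11.60, 11.99 and 12.53 in replicates 4, 5 and 6 and 12.48, 12.51 and 12.51 in replicates 1, 2 and 3. Of the follicular list 1 gene was near background, and of the endothelial list none was. Their part in the Hoxb values was not tested. On the first principal component replicates 4, 5 and 6 were also the lowest of the older tumours, at -11.7, 4.21 and 35.8. Replicates 1, 2 and 3 lay at 69.9, 52.5 and 50.3. The part of this component in the Hoxb values was not tested either.

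The second question was what sets homozygous apart from heterozygous tumours of 9 months. No Hox gene passed, as no gene of the 11370 did by limma (0%), and none of the 12 had an unadjusted p under 0.05, against 8.75% of all genes. The smallest p-values belonged to Hoxa7 (-0.09, SE 0.06), Hoxb3 (0.35, SE 0.24) and Hoxb7 (0.28, SE 0.22), with limma adjusted p-values of 0.657 to 0.692. The fit shares its spread with the 18-month group, where the SDs of Hoxb7 and Hoxb8 were 0.65 and 0.94. With only the compared groups in the fit Hoxb7 had an SE of 0.09 and a limma adjusted p of 0.236. Hoxb8 had an SE of 0.13 and a limma adjusted p of 0.251 in that fit. The count of unadjusted p-values above is from the shared fit only, and it is not read as a result about Hox genes as a group. Hoxb7 ranged from 8.08 to 8.63 in homozygous and from 7.96 to 8.28 in heterozygous tumours, with 5 of 6 homozygous values above every heterozygous one. Hoxb8 ranged from 8.13 to 8.78 and from 7.92 to 8.35 in the same groups, a difference of 0.35 (SE 0.31), with 4 of 6 above. Hoxa7 ranged from 6.84 to 6.98 in homozygous and from 6.94 to 7.09 in heterozygous tumours. Intervals of the 12 differences reached as far as 1.08 for Hoxc4 and 1.00 for Hoxb8, so the intervals still hold differences of that size.

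A single homozygous tumour was high for Hoxb3, Hoxb4 and Hoxc4. Homozygous replicate 3 had 10.05 for Hoxb3, against 8.93 to 9.23 in the other 5, and 9.75 for Hoxb4, against 8.92 to 9.13. For Hoxc4 it had 8.34, the highest of all 18 arrays, against 5.97 to 6.30 in the other 5. Its Hoxc5, a gene near background, was at 6.19, against 5.41 to 5.70. Without it the difference of Hoxb3 from heterozygous tumours was 0.18 in place of 0.35, that of Hoxb4 0.06 in place of 0.18, and that of Hoxc4 -0.03 in place of 0.34. Hoxb7 and Hoxb8 did not set it apart, with 8.39 and 8.47 inside the range of the other homozygous tumours. Its C cell markers averaged 12.43, against 11.31 to 11.60 in the others of its group, and its follicular markers 10.18, against 10.74 to 10.96. Their part in its Hox values was not tested.

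**Figure D4:**
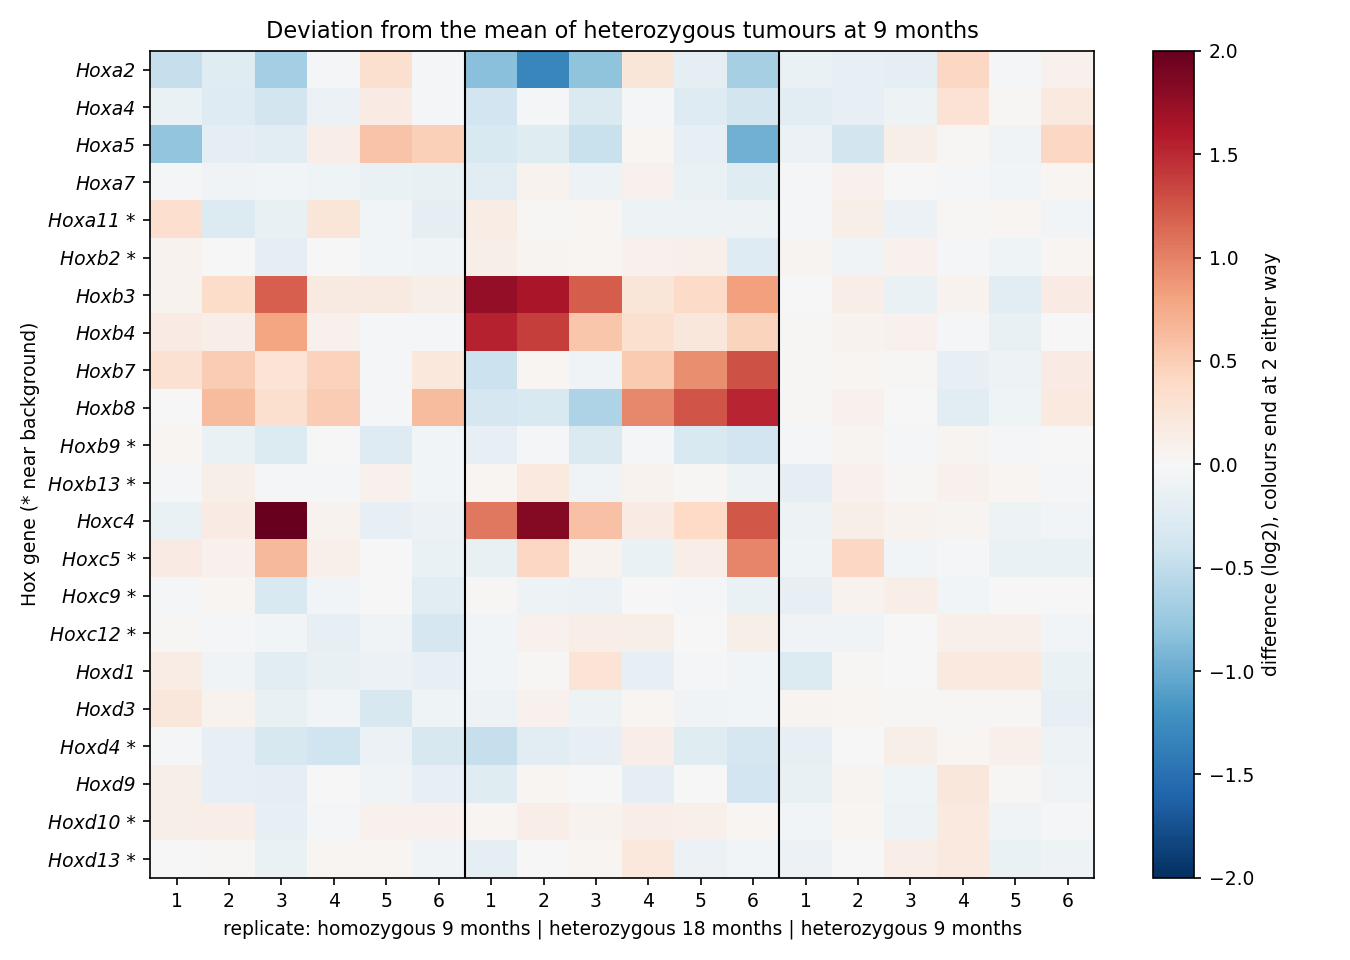
Deviation (log2) of each tumour from the mean of heterozygous tumours at 9 months for the 22 Hox genes, with homozygous tumours of 9 months, heterozygous tumours of 18 months and heterozygous tumours of 9 months from left to right; stars mark genes near background and colours end at 2. Homozygous replicate 3 and replicates 1 and 2 of 18 months are high for Hoxb3, Hoxb4 and Hoxc4, and replicates 4, 5 and 6 of 18 months for Hoxb7 and Hoxb8. They are not alone: replicate 3 of 18 months is also high for Hoxb3 (value 10.07), and replicate 6 of 18 months for Hoxc4 (value 7.38).

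The comparison of homozygous tumours of 9 months with heterozygous ones of 18 months changes age and genotype together and shares both groups with the comparisons above. Hoxb3 and Hoxb4 were lower in the homozygous tumours, 2 of 12 (16.7%) against 13.6% of all genes, and 0 of 12 were higher, against 16.2% (29.8% in either direction). Hoxb3 averaged 9.21 in homozygous tumours and 9.87 in heterozygous tumours of 18 months, and fell by 0.66 (SE 0.24, limma adjusted p = 0.0489). Hoxb4 averaged 9.14 and 9.70 in those groups and fell by 0.56 (SE 0.21, limma adjusted p = 0.0483). The groups overlapped for all 12 Hox genes, and failed to overlap for 1.26% of all genes on the higher and 0.994% on the lower side. With only the compared groups in the fit neither passed (limma adjusted p-values of 0.121 and 0.123), nor with no filter (0.0588 and 0.0582), where 9.64% of genes were lower and 11.9% higher. Hoxb3 kept its call only without homozygous replicate 3 (-0.83) or without replicate 4 or 5 of the 18-month group, and lost it without each of the other 15 arrays (limma adjusted p up to 0.121). Hoxb4 kept it without the same 3 arrays and without replicate 6 of 18 months, and lost it without the other 14 (adjusted p up to 0.122). Hoxc4 differed by -0.54 (SE 0.35) and passed without homozygous replicate 3 (-0.91, limma adjusted p = 0.00479). As Hoxc4 entered the test only through the tumours in which it was high, this too is a description. Hoxa2 differed by 0.40 (SE 0.22) and passed without replicate 4 of 18 months (0.57, limma adjusted p = 0.0227).

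Genes that act with or upon the Hox clusters were counted in lists. No list was tested as a set, and its counts are not read as a result about it. The comparison of 18 with 9 months called 29 of 101 such genes higher and 23 lower, against 21.6% and 22.4% of all genes. Of 9 cofactor genes of the TALE class 4 rose, 2 fell and 3 did not pass (median 0.12). Meis2, a partner of Hox proteins, averaged 10.9 ± 0.95 at 18 months and 9.19 ± 0.26 at 9 months and rose by 1.75 (SE 0.40, limma adjusted p = 0.00252). Meis1 rose by 0.61, Meis3 by 0.48 and Pbx4 by 0.39. The Meis1 call was lost with parathyroid or fibroblast markers as a covariate (0.48 and 0.57, limma adjusted p-values of 0.0548 and 0.0576). The 2 that fell, chosen after their values were seen, were Tgif1 (-0.56) and Tgif2 (-0.70), which encode repressors.

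Of 14 tested genes of retinoic acid signalling, the pathway that switches on the low-numbered Hox genes in the embryo, none rose, 7 fell and 7 did not pass (median -0.31). Over all genes tested 21.6% rose and 22.4% fell. Stra6, a receptor for vitamin A uptake, fell by 1.96 (SE 0.37), to 8.74 ± 1.09 at 18 months against 10.7 ± 0.20 at 9 months (limma adjusted p = 0.000849). Crabp1, a binding protein of retinoic acid, fell by 1.42, Rdh10, which makes retinal, by 0.87, and the retinal reductase Dhrs3 fell by 1.12. The list mean of each older tumour was 8.53, 8.41 and 7.95 in replicates 4, 5 and 6 and 7.50, 7.88 and 7.90 in replicates 1, 2 and 3. Follicular and endothelial markers had the same split, and their part in this list was not tested. Dhrs3 missed the threshold without replicate 3 of the 18-month group (limma adjusted p = 0.0512) and with parathyroid (0.113) or fibroblast markers (0.135) as a covariate. Rdh10 missed it with the fibroblast covariate (0.0505).

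Of 27 Polycomb genes 9 rose, 3 fell and 15 did not pass (median 0.02), where 21.6% of all genes rose and 22.4% fell. Cbx6 and Cbx2, chromodomain subunits of Polycomb complex PRC1, rose by 0.84 and 0.45, Pcgf6, of a variant complex, rose by 0.56 and the methyltransferase gene Ezh1 fell by 0.42. The related Ezh2 differed by -0.09 (SE 0.09, limma adjusted p = 0.423). Of 16 genes of MLL complexes, menin and related factors 7 rose, 4 fell and 5 did not pass (median 0.05), beside the same shares of all genes. Psip1, which tethers menin and MLL to chromatin, rose by 0.79, Hcfc1, a subunit of such complexes, rose by 0.30, and Ash2l, a core subunit, and Mllt1, an elongation factor, fell by 0.34 and 0.38. Men1 rose by 0.16 (SE 0.06, limma adjusted p = 0.0265), and missed the threshold without replicate 4 of the younger group (adjusted p = 0.0553) or replicate 1 or 3 of the older (0.0674 and 0.0638). It also missed it with parathyroid (0.132) or fibroblast markers (0.135) as a covariate and with quantile normalization (0.0509). Kmt2a had no probe set of that symbol alone and was not analysed here.

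Of 4 upstream axial regulators Gdf11, a secreted factor of trunk patterning, rose by 0.99 and Cdx4, a homeobox gene that activates Hox genes in the mouse, by 0.32, with Cdx4 at a mean of 6.70. Of 19 neighbours of the clusters 4 rose, 5 fell and 10 did not pass (median -0.07), where 21.6% of all genes rose and 22.4% fell. Hibadh fell by 0.60, Calcoco1 by 0.39, Atp5mc2, an ATP synthase subunit, by 0.27 and Tax1bp1 by 0.48. Skap1, an adaptor gene beside the Hoxb cluster, rose by 0.95 and Skap2, its relative beside the Hoxa cluster, fell by 0.98 (limma adjusted p-values of 0.0161 and 0.003), both chosen after their values were seen. Of 12 other homeobox genes of pharynx and endocrine cells 3 rose, 2 fell and 7 did not pass (median 0.03), beside the same shares of all genes. Prox1 and Isl1, factors of endocrine and neural cells, rose by 1.42 and 1.29, Six4 rose by 0.38, and Prrx1, a factor of mesenchyme, fell by 0.60. With fibroblast markers as a covariate Prrx1 (-0.38, limma adjusted p = 0.08) and Cdx4 (0.34, adjusted p = 0.0531) missed the threshold, and Cdx4 also with parathyroid markers (0.25, adjusted p = 0.0917).

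At 9 months none of the genes of these lists passed between homozygous and heterozygous tumours. Meis1 differed by 0.31 (SE 0.16), Men1 by 0.11 (SE 0.06) and Ezh2 by 0.20 (SE 0.09), with limma adjusted p-values of 0.544 to 0.586.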

How the data were processed

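Each array has 1 column of values, which the authors deposited on a log2 scale; the submitters' processing notes name RMA and Affymetrix Expression Console 1.3.0.187 without a role or an order. Genome build and array dates are not given in the sources used here. The platform annotation gave 1 symbol for 15310 probe sets, several for 323 and none for 13581. The probe set with the highest mean stood for a gene, and all 22 Hox IDs were found in RefSeq (GRCr8), used for names and order.

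The titles of the arrays gave the groups. All 18 arrays entered 1 limma fit (version 3.58.1, R 4.3.3) over 11370 genes with a mean for each group. Tests were two-sided, with Benjamini-Hochberg adjustment over all genes tested, and a gene passed at an adjusted p under 0.05. Intervals are 95% intervals of that fit. The procedure was tested on simulated data. These had independent genes and the same spread in every group, unlike the tumours, so they do not vouch for the calls here. The number of arrays limits the precision. Members and lists were chosen with earlier results of these data known.

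Hox genes described by group were those that passed in any comparison, the highest and the widest-ranging in each cluster, the 3 with the smallest p where none passed, and those that passed only with no filter. Of each list up to 4 passing genes with the smallest p were named, and Men1, Kmt2a, Ezh2 and Meis1 always.

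Other settings tried were array weights, marker means as covariates, median centring, further quantile normalization, trend and robust moderation, a mean over probe sets, only the compared groups, replicate number as a block, filters at no level or at the 50th percentile, and fits without single arrays.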

Additional observations from a re-analysis of the deposited data

Results flagged for a closer look

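In each of 66 sets of 6 tumours (22 genes in 3 groups) the highest or lowest value was set against the others by Dixon's ratio of gap to range. Chance flags about 1 in 20 such sets, and 7 were flagged. Of these 4 belonged to homozygous replicate 3, which was high for Hoxb3 (10.05), Hoxb4 (9.75), Hoxc4 (8.34) and Hoxc5 (6.19). Heterozygous replicate 2 of 9 months was high for Hoxc5 (5.95, against 5.40 to 5.52 in the others). Heterozygous replicate 6 of 9 months was low for Hoxd3 (6.49, against 6.67 to 6.70), and replicate 6 of 18 months was low for Hoxb2 (5.62, against 5.92 to 6.00). Hoxb2 and Hoxc5 lay near background.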

How the results depend on the processing

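Between 18 and 9 months 3 Hox genes were higher and 1 lower. The lower count was 2 with no filter, 0 with a filter at the 50th percentile, which left out Hoxa2, and 0 with parathyroid or with fibroblast markers as a covariate; it ran from 0 to 2 without each array in turn. The higher count was 1 with the parathyroid and 0 with the fibroblast covariate, and 2 to 3 without each array; it was 2, without Hoxc4, with no filter, with the filter at the 50th percentile, with trend and robust settings and with the replicate block. With the fibroblast covariate Hoxb3 was at 0.85 (limma adjusted p = 0.0545) and Hoxb4 at 0.46 (adjusted p = 0.164), and with the parathyroid covariate Hoxb4 was at 0.65 (adjusted p = 0.052). The cause was not tested. Hoxd1 reversed with array weights (0.0286), median centring (0.0221), quantile normalization (0.0231), the fibroblast covariate (0.0085) and both of replicates 4 and 5 of 18 months left out (0.0486), and ran from -0.0559 to 0.0395 without each array.

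Between the genotypes 0 Hox genes passed under every setting run, 0 also without each array. With the fibroblast covariate Hoxa2 reversed to 0.0762 and Hoxb4 to -0.12, and without each array Hoxc4 ran from -0.0315 to 0.44. In the third comparison 2 genes were lower: 0 with no filter, 0 with the parathyroid covariate, 0 with only the compared groups, 1 with trend and robust settings, 1 with median centring, 3 with array weights, where Hoxc4 passed (-0.98, limma adjusted p = 0.00538), and 0 to 3 without each array. Genes higher there numbered 2 with array weights, 1 with replicates 4 and 5 left out and 0 to 1 without each array. The Hoxc4 call with array weights is a description, since the gene entered the test only through its high tumours. Hoxb8 reversed with array weights (0.14) and with replicates 4 and 5 left out (0.28), and Hoxb7 also reversed with these 2 left out (0.0845); without each array they ran from -0.27 to 0.16 and from -0.25 to 0.088.

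The same alternatives were applied to the lists after seeing the data: 29 genes were higher and 23 lower, 18 and 14 with the parathyroid covariate, 18 and 12 with the fibroblast covariate, and 26 to 32 and 19 to 24 without each array. Replicate numbers marked different animals, and same-numbered tumours correlated from -0.29 to 0.35 once group means were taken out. In 4 of 18 such pairs the tumour of the same number was the best match in the other group. Whether a batch lies behind the number was not tested. With the replicate block Hoxc4 missed the threshold between 18 and 9 months (0.88, limma adjusted p = 0.055). Signal near background limits the 10 untested genes.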
